A study of Bos taurus with 3 samples.

Results

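In the rumen wall of newborn calves, CXCL14 and CXCL12 were at their highest level in fibroblast-like cells, CCL14 in endothelial-like cells, and CCL5, CXCR4, CCR7 and CCR6 in immune cells. CXCL9, CXCL10 and CCL21 were held by few cells, and for CCL21 3 of its 11 cells carried all but 8 of its 194 molecules. These 10 genes are 7 chemokine ligands (CXCL14, CXCL12, CCL14, CCL21, CXCL9, CXCL10 and CCL5) and 3 receptors (CXCR4, CCR7 and CCR6), taken by name from the 27270 genes of the count matrices, where each name had 1 row.

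Chemokines are small secreted proteins that bind G-protein-coupled receptors on migrating cells, and a cell moves up the gradient of a ligand for which it holds the receptor. CXCL12 is read by CXCR4, CCL21 and CCL19 by CCR7, CCL20 by CCR6, CXCL9 and CXCL10 by CXCR3, and CCL5 and CCL14 by CCR1 among others. In mucosal tissues stromal cells make constitutive ligands that hold or guide leukocytes, while other ligands are switched on by inflammatory signals such as interferon. Atypical receptors (ACKR1, ACKR3, ACKR4) bind the same ligands without the usual signalling and transport or remove them.

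The tissue was the ventral rumen sac of 3 untreated newborn calves, taken 1 day after birth. The outer muscle was stripped, the rest was dissociated with EDTA, trypsin and a mix of collagenases, dispase, hyaluronidase and DNase, and dead cells were removed where viability was low, so cells that did not survive this are not represented. Each calf gave 1 Chromium 3′ v3 library, in which a unique molecular identifier (UMI) marks each captured transcript, and all values below are UMI counts. The calf was the replicate, and cells of 1 calf were not.

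The 3 libraries held 7529, 12043 and 11656 barcodes, and between 21 and 37 barcode sequences occurred in 2 libraries at once. After the limits of 500 to 4000 genes, 50000 UMIs and 40% mitochondrial UMIs and the removal of doublets, 4695, 9746 and 9601 cells were left, with median depths of 10171, 6498 and 7425 UMIs. They fell into epithelial-like (21135 cells), endothelial-like (1270), fibroblast-like (764, myofibroblasts and mural cells included) and immune cells (774), while 99 cells of mixed markers were set aside. Immune cells numbered 10, 69 and 695 and fibroblast-like cells 22, 340 and 402 in calves 1, 2 and 3, so the values of calf 1 in both classes rest on few cells. The summed level of 7 immune markers was 44.1 to 50.1 UMIs per 10000 in immune cells and at most 0.653 in the other classes, and that of 9 endothelial markers was 47.7 to 56.9 in endothelial-like cells and at most 1.37 elsewhere. For 9 fibroblast markers it was 316 to 336 in fibroblast-like cells and at most 4.04 in the other classes. Epithelial marker RNA was present in every class, against 182 to 241 UMIs per 10000 within the epithelium. It stood at 5.42 to 10.9 in endothelial-like, 10.2 to 13.2 in immune and 15.7 to 105 in fibroblast-like cells. All chemokine and receptor genes were kept out of the genes used for clustering, but the classes were still drawn from the same cells.

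Levels are given as UMIs of a gene per 10000 UMIs of a class. Thinned positive shares are the percent of cells with at least 1 UMI after each cell was thinned to 2000 UMIs. Thinning was used because the median depth ran from 2103.5 UMIs in fibroblast-like cells to 7706 in epithelial-like cells. Shares and counts of positive cells that are not marked as thinned, among them most of those within clusters, use all cells and are not matched for depth. Thinning left out 347 fibroblast-like, 126 endothelial-like, 90 immune and 512 epithelial-like cells that were shallower. Intervals and floors cover counting error only.

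**Figure D1:**
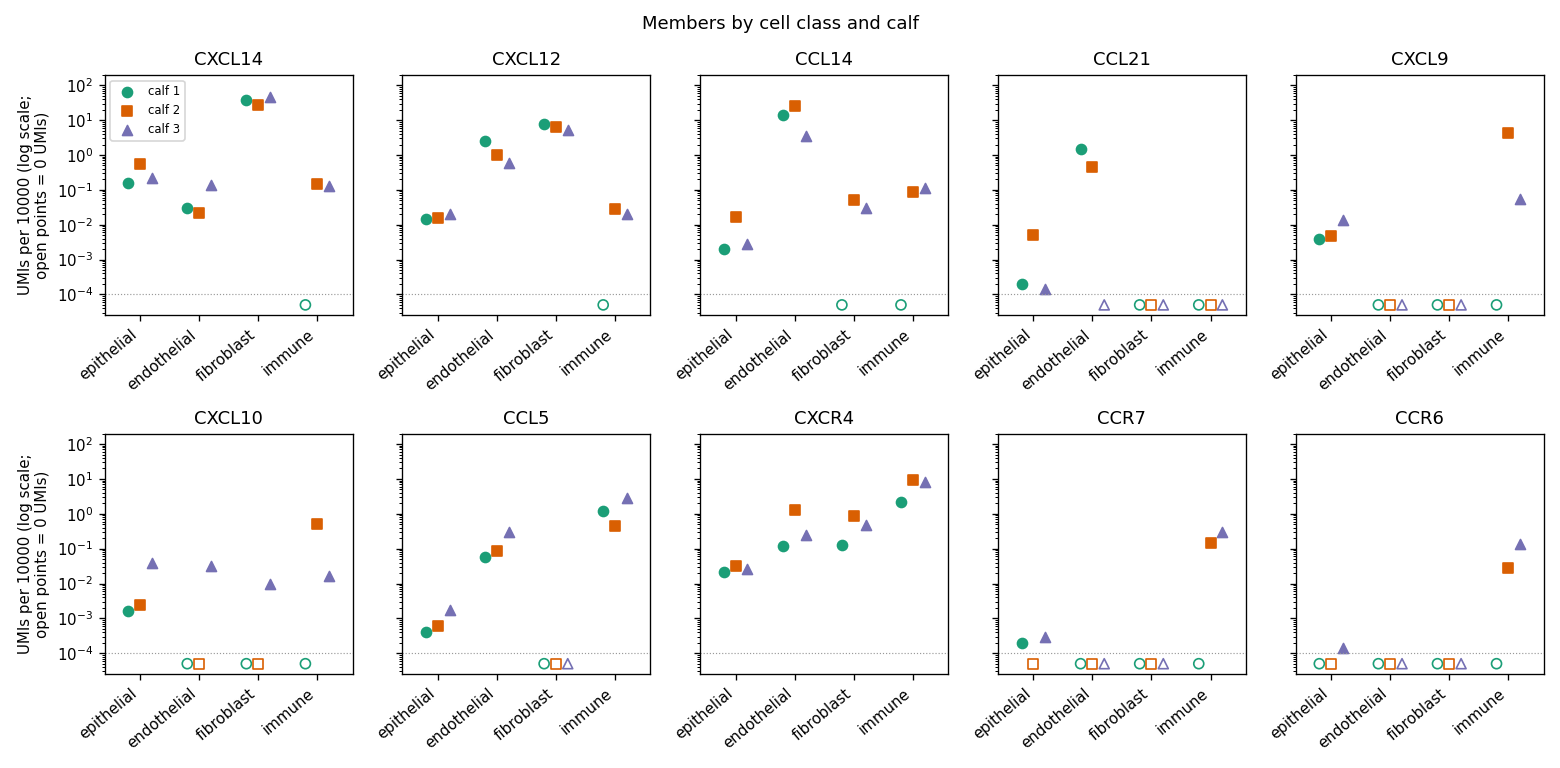
Level of each of the 10 genes in UMIs per 10000 (log axis, open points mark 0 UMIs) in 4 cell classes, with 1 point per calf. CXCL14 lay between 27.1 and 44.7 in fibroblast-like cells of the 3 calves and at 0.554 or less in every other class.

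CXCL14 (ENSBTAG00000006694), a chemokine known from epithelia and stroma, stood at 36.8, 27.1 and 44.7 UMIs per 10000 in the fibroblast-like cells of calves 1, 2 and 3 (36.2 ± 8.86, SD, n = 3). Epithelial-like cells held 0.162, 0.554 and 0.223, endothelial-like cells 0.0297, 0.0215 and 0.142, and immune cells 0, 0.143 and 0.127. The 3 fibroblast values lay above all the others, with no overlap, and calf 2 was at once the lowest in fibroblast-like and the highest in epithelial-like cells. The thinned positive share was 30.1 ± 6.69% in fibroblast-like cells (37.5, 24.5 and 28.2%, unthinned 41.1 ± 2.09%) and 4.75 ± 2.54% in epithelial-like cells (2.81, 7.62 and 3.82%, unthinned 15.3 ± 5.55%). The fibroblast level was higher than in each of the other classes, with a log2 difference of epithelial minus fibroblast of -6.33 (SE 0.43, adjusted p = 1.17e-13).

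The gene was uneven within the fibroblast-like class. A cluster of 280 cells led by PENK, APOD and PAM held 166, 87.1 and 157 UMIs per 10000, and 273 of its 280 cells had at least 1 UMI. A cluster of 133 cells led by MFAP5 and DLK1 held 0, 2.79 and 0.720, the 168 cells of a smooth-muscle-like cluster (MYH11, ACTG2, CNN1) 0, 0.153 and 4.88, and the 150 cells of an RGS5-led mural-like cluster 0, 0 and 0.0814. A small unnamed cluster of 33 cells (NKAIN1, CLDN11) held 40.2, 21.2 and 88.3, the first from 1 cell. In each calf the PENK-led and the unnamed cluster thus held more CXCL14 than the other 3 clusters, as the plot of stromal clusters by calf shows.

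In the epithelium CXCL14 was highest in the differentiating cells led by SPINK5 and KRTDAP, the latter a keratinocyte differentiation-associated gene. This cluster of 872 cells held 1.15, 3.04 and 0.665 UMIs per 10000, and the other 8 epithelial clusters held 0.0938 to 0.376 as pooled levels. Of its 817 cells deep enough to thin, 215 were positive (26.3%), against 2.09 to 7.16% in the other epithelial clusters. The order held in each of the 3 calves, where no other epithelial cluster passed 0.205, 0.578 and 0.274.

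The CXCL14 counts of each class were set beside those of COL3A1, a fibroblast collagen. The source of the CXCL14 UMIs outside fibroblast-like cells was not tested. There were 25.6, 9.45 and 5.29 CXCL14 UMIs for each COL3A1 UMI in epithelial-like cells of the 3 calves, against 0.324, 0.257 and 0.388 in fibroblast-like cells. In endothelial-like cells the ratio was 0.5 (1 and 2 UMIs), 0.333 and 0.395. In immune cells of calves 2 and 3 it was 0.217 and 0.662. Because epithelial-like cells were so many, they held 73.0, 63.0 and 24.8% of all CXCL14 UMIs of the 3 calves (53.6 ± 25.4%) and fibroblast-like cells 26.2, 36.5 and 73.5% (45.4 ± 24.9%). Calf 3 had the opposite order of calves 1 and 2, and such shares follow how many cells of each class were captured.

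**Figure D2:**
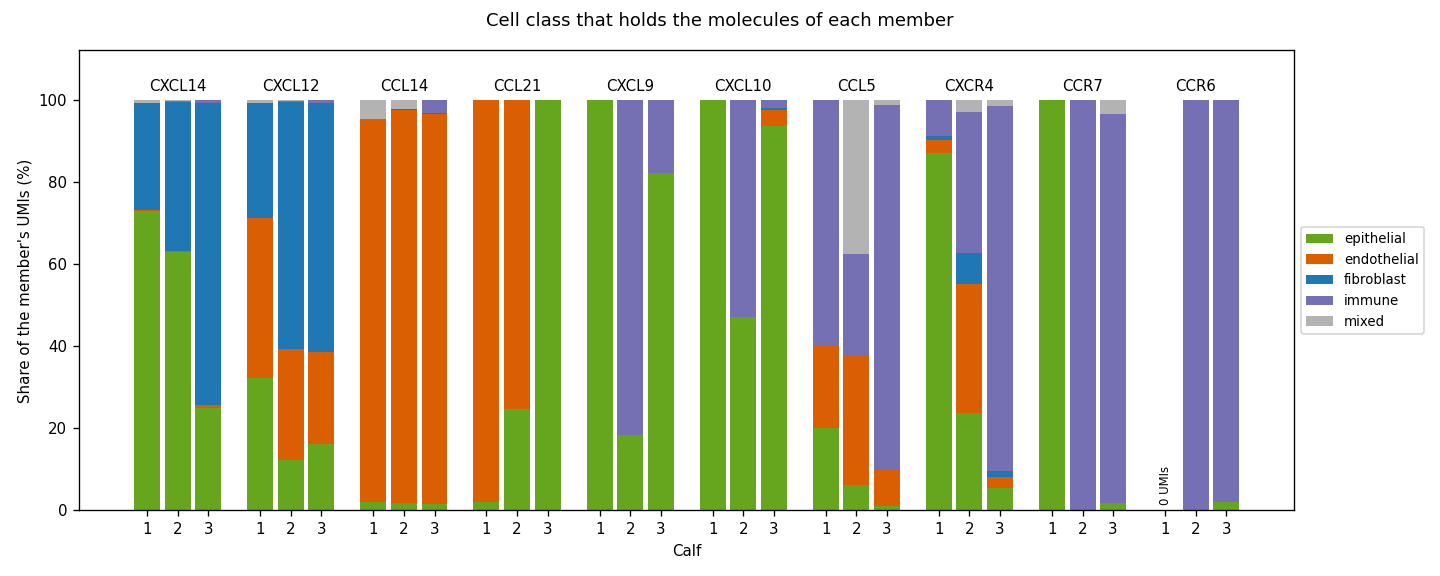
Share of the UMIs of each gene that lay in each cell class, in percent, with 1 stacked bar per calf and mixed cells in grey. The CCL14 bars are endothelial in each calf (94.7 ± 1.28% over 3 calves), while the main holder of CXCL14, CXCL12, CCL21, CXCL9, CXCL10, CCL5, CXCR4 and CCR7 changed between calves. For CCR7 the change rested on 1 UMI, all that calf 1 held, and for CCL21 on 1 UMI, all that calf 3 held. For CCL5 and CXCL10 it rested on calf 2, with 64 and 34 UMIs.

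CXCL12 (ENSBTAG00000005077), the ligand of CXCR4 that holds leukocytes and progenitors near stroma, was at 7.73, 6.55 and 5.24 UMIs per 10000 in fibroblast-like cells (6.51 ± 1.25, n = 3) and at 2.58, 1.01 and 0.572 in endothelial-like cells (1.39 ± 1.06). Epithelial-like cells held 0.0143, 0.0157 and 0.0207 and immune cells 0, 0.0286 and 0.0197. Fibroblast-like cells were above endothelial-like cells in each calf, and both were above the other classes without overlap. The log2 difference of endothelial minus fibroblast was -2.39 (SE 0.31, adjusted p = 2.28e-07), and endothelial minus epithelial 5.57 (SE 0.34, adjusted p = 6.15e-15). The thinned positive share was 36.6 ± 4.68% in fibroblast-like (unthinned 40.2 ± 0.691%), 11.1 ± 3.49% in endothelial-like (unthinned 17.6 ± 4.15%) and 0.370 ± 0.0536% in epithelial-like cells (unthinned 1.51 ± 0.330%), and 309 of the 315 positive epithelial-like cells had 1 UMI. Fibroblast-like cells held 27.8, 60.3 and 60.6% of all CXCL12 UMIs of the 3 calves, and endothelial-like cells 39.0, 27.0 and 22.4%.

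The cluster led by MFAP5 and DLK1 had the highest CXCL12 level of the endothelial and fibroblast clusters in each calf, at 17.7, 28.1 and 19.8 UMIs per 10000, with 118 of 133 cells positive. The PENK-led cluster, rich in CXCL14, held 0.584, 1.94 and 1.54. Among fibroblast-like cells proper (the 2 named fibroblast clusters, 174 cells deep enough to thin), CXCL12 was found in 25 of 95 cells with CXCL14 (26.3%) and in 69 of 79 cells without it (87.3%). The split was present in each calf, at 0 of 5 against 4 of 5 cells, 8 of 31 against 26 of 30 and 17 of 59 against 39 of 44. The RGS5-led mural-like cluster held 0, 2.24 and 4.27, where calf 1 had 1 cell.

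In the endothelium CXCL12 was concentrated in the cluster led by GJA5, a gap junction gene of arteries, and HEY1, a Notch target, at 9.67, 2.86 and 1.64 UMIs per 10000. A shallow cluster of 51 cells with GJA4 and PLAC9 held 16.2, 12.1 and 1.53, with 2 cells in calf 1. The largest endothelial cluster (683 cells, PLVAP and LYVE1) held 0.753, 0.129 and 0.0583, lower than the GJA5 cluster in each calf. Calf 1 was the highest and calf 3 the lowest in these 3 clusters.

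CCL14 (ENSBTAG00000010738), a ligand of CCR1, had the largest endothelial share of UMIs among the 7 ligands. Endothelial-like cells held 14.0, 26.2 and 3.58 UMIs per 10000 (14.6 ± 11.3, n = 3), while no other class passed 0.110 in any calf. Calf 3 was the lowest and calf 2 the highest, and each was above every value of the other classes. Thinned positive shares were 86.6% (exact 95% interval 76.0 to 93.7), 96.9% (94.9 to 98.2) and 42.0% (38.0 to 46.1), and unthinned ones 94.6, 98.1 and 59.7%. The log2 difference of endothelial minus immune, the nearest class, was 6.24 (SE 0.49, adjusted p = 4.57e-12).

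The low level of CCL14 in calf 3 was seen across the endothelium: in the 5 largest endothelial clusters calf 3 was below calf 2, and below calf 1 in all of them but a cluster in which calf 1 had 1 cell. Of the endothelial markers, PECAM1 stood at 7.24, 7.17 and 6.47 UMIs per 10000 of endothelial-like cells, and CLDN5 at 9.73, 15.9 and 8.20. With 1 library for each calf, a difference between animals and a difference between libraries cannot be told apart. The most CCL14 was found in the cluster led by EBD and FGL1 (36.6, 41.6 and 10.2 UMIs per 10000), in which 52.4% of cells also held ACKR1, a chemokine-binding receptor of venules.

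In the epithelium, at a median depth of 7706 UMIs against 3996.5 in the endothelium, 0.554 ± 0.559% of cells had a CCL14 UMI (0.196 ± 0.217% when thinned). The source of these UMIs was not tested. The share was highest in calf 2, as was the endothelial level, and 132 of the 134 positive cells held 1 UMI. For each CLDN5 UMI there were 1.11, 1.25 and 0.432 CCL14 UMIs in epithelial-like cells and 1.44, 1.65 and 0.437 in endothelial-like cells.

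CCL21 (ENSBTAG00000010161), a ligand of lymphatic endothelium that guides CCR7-bearing cells, was carried by very few barcodes. Kept cells held 194 UMIs in 11 cells, of which 107 were in 1 cell of calf 2, 50 in 1 cell of calf 1 and 29 in another cell of calf 2, and the other 8 cells had 1 UMI each. Fibroblast-like and immune cells held none, and 0 of 764 and 0 of 774 cells allow shares of cells with a UMI of up to 0.393% and 0.388% (3 counts of the total), at the depth of each class. The test put the endothelial class above each other class for CCL21. There were 4 cells that alone held at least 10% of a gene's UMIs, 3 of them for CCL21 and 1 for CXCL9, and without these 4 cells CCL21 no longer passed the count filter of the test. With DESeq2 the endothelial difference from the mean of the other classes did not pass (adjusted p = 0.170).

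Over all barcodes, 7 held at least 5 CCL21 UMIs, of which 5 came from calf 2 and 1 each from calves 1 and 3. MMRN1, a gene of lymphatic endothelium, was present in 7 of 7 with 9 to 33 UMIs, FLT4, the lymphatic VEGF receptor, in 6 and LYVE1, which also led the largest endothelial cluster, in 5, whereas PROX1, the lymphatic transcription factor, was found in 1 with 1 UMI, PLVAP, a blood capillary gene, was at 0 in all 7 and VWF was present in 1. The doublet score removed 4 of the 7, and the clustering put 2 into an endothelial cluster with MMRN1 among its leading genes and 1 among dividing epithelial-like cells, although its KRT15 count was 1. These barcodes had 2178 to 3361 UMIs, and no cluster met the markers of lymphatic endothelium, so the level of CCL21 in that cell type cannot be given as a class value. In barcodes removed as doublets there were 222 CCL21 UMIs, more than in the kept cells.

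**Figure D3:**
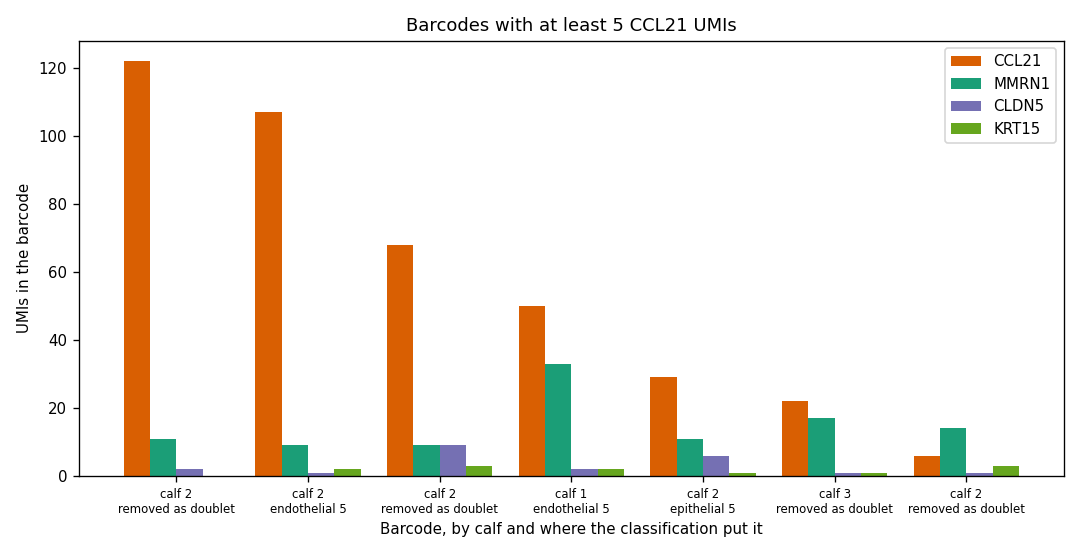
UMIs of CCL21, MMRN1, CLDN5 (endothelial) and KRT15 (epithelial) in the 7 barcodes with at least 5 CCL21 UMIs, with 1 group of bars per barcode, labelled by calf and by where the classification put it. CCL21 ran from 6 to 122 UMIs and MMRN1 from 9 to 33, while KRT15 was at most 3.

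CXCL9 (ENSBTAG00000050852) and CXCL10 (ENSBTAG00000001725) are interferon-induced ligands of CXCR3, the receptor of effector T cells, and both were sparse. CXCL9 had 312 UMIs in 141 kept cells, of which 147 UMIs lay in 1 dendritic-like cell of calf 2 that also had 10 CXCL10 UMIs. Immune cells had 0, 147 and 20 CXCL9 UMIs in 7 cells, epithelial-like cells 20, 33 and 92 in 134 cells, and endothelial-like and fibroblast-like cells none. Of the 134 epithelial-like cells 126 had 1 UMI, and the thinned share was 0.136 ± 0.0880% (unthinned 0.609 ± 0.417%). The other immune cells with CXCL9 were macrophage-like or in the dendritic-like cluster led by CLEC9A and DNASE1L3.

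CXCL10 had 325 UMIs in 130 cells, of which epithelial-like cells held 8, 16 and 265 UMIs and immune cells 0, 18 and 6. Calf 3 supplied 100 of the 118 positive epithelial-like cells, with up to 30 UMIs in a cell, and the epithelial level was 0.00158, 0.00237 and 0.0384 UMIs per 10000. Of these epithelial UMIs 184 lay in a cluster led by KRT8, RGS4 and IRF1, a transcription factor of the interferon response. After thinning, ISG15, an interferon-induced gene, was found in 13 of 36 CXCL10-positive epithelial-like cells of calf 3 (36.1%) and in 1636 of 7611 without CXCL10 (21.5%), and CXCL9 was found in 1 of the 36. The immune class was called higher than the others for both genes, with adjusted p = 6.97e-08 for CXCL9 and 0.00773 for CXCL10, and the call for CXCL10 was lost without the 4 cells that alone held at least 10% of a gene's UMIs (adjusted p = 0.0646). Without calf 2 the CXCL10 difference was -0.38 (log2, adjusted p = 0.863), while that of CXCL9 was 6.66 (adjusted p = 7.05e-07). CXCL9 and CXCL10 lie on the same chromosome with 1 protein-coding gene, ART3, between them in the RefSeq annotation of ARS-UCD2.0.

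CCL5 (ENSBTAG00000053649), made by cytotoxic and memory lymphocytes, stood at 1.196, 0.457 and 2.83 UMIs per 10000 of immune cells (1.50 ± 1.22, n = 3). Endothelial-like cells held 0.0593, 0.0859 and 0.293, epithelial-like cells 0.000396, 0.000592 and 0.00174 and fibroblast-like cells none. The thinned share of immune cells was 28.6, 1.69 and 20.2% (unthinned 30.0, 8.70 and 26.0%), the first from 7 cells. The immune values did not overlap with the rest, and calf 3 was the highest in the 3 classes that held the gene. The immune class was higher than each other class, with a log2 difference of endothelial minus immune of -3.15 (SE 0.32, adjusted p = 3.20e-09).

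Within the immune class CCL5 was highest in cytotoxic lymphocyte-like cells. In calf 3, the only calf with more than 14 cells in this cluster, the cells led by KLRB1, KLRK1 and CTSW held 18.0 UMIs per 10000 and 67.7% of 158 had a UMI (exact 95% interval 59.8 to 74.9). The IL17F-led lymphocytes held 3.57 with 26.0% of 73 cells (16.4 to 37.6), the C1QC-led macrophage-like cells 2.62 with 31.5% of 92 (22.2 to 42.0), and the FCER1A-led dendritic-like cells 0.313 with 9.77% of 215 (6.15 to 14.5). After thinning, CTSW was found in 73 of 96 CCL5-positive lymphocytes of calf 3 and in 27 of 108 without CCL5, while CD3E was found in 45 and in 84 of them. In calf 2 no thinned lymphocyte had CCL5, although 10 of the 16 had CTSW, so this comparison rests on calf 3. The dendritic-like minus lymphocyte difference was -5.30 (log2, SE 0.47, adjusted p = 1.17e-26), and without calf 3 it was -3.05 with adjusted p = 0.610.

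The endothelial CCL5 rested on 19 of 1270 cells. Of its 123 UMIs 106 lay in 5 cells, and PTPRC, the pan-leukocyte gene, was found in 1 of the 19, CD3E and CTSW in 0, and CLDN5 in 13. The cell with most of them held 63 CCL5 UMIs together with 11 of PLVAP, 1 of VWF, 0 of CLDN5 and 0 of PTPRC. The next held 17 CCL5 UMIs, with 6 of PLVAP, 1 of VWF and 0 of CLDN5 and PTPRC. The source of these UMIs was not tested.

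CXCR4 (ENSBTAG00000001060), the CXCL12 receptor, was detected in every class and calf. Immune cells held 2.19, 9.05 and 8.28 UMIs per 10000 (6.51 ± 3.76, n = 3), endothelial-like cells 0.119, 1.25 and 0.244, fibroblast-like cells 0.125, 0.861 and 0.481, and epithelial-like cells 0.0212, 0.0324 and 0.0262. The immune values lay above all others, the epithelial values below all others, and calf 2 was the highest in each class. The thinned positive share was 42.9% of 7 immune cells in calf 1, 64.4% in calf 2 and 63.6% in calf 3 (unthinned 60.0, 79.7 and 80.3%), against 0.487 ± 0.153% in epithelial-like cells (unthinned 2.16 ± 0.0875%). The log2 differences were -3.85 for endothelial minus immune (SE 0.38, adjusted p = 6.25e-10) and -0.05 for endothelial minus fibroblast (SE 0.39, adjusted p = 1), so the order of the latter pair was not resolved.

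Among immune cells, the lymphocytes held most CXCR4. Levels were 15.4, 24.97 and 16.3 UMIs per 10000 in T or cytotoxic lymphocyte-like cells, 0.892, 7.21 and 8.51 in macrophage-like cells and 0, 2.32 and 5.03 in dendritic-like cells, with 3, 5 and 2 cells of these types in calf 1. Dendritic-like cells were below lymphocytes by -2.37 (log2, SE 0.32, adjusted p = 8.55e-12). The 28 plasmacytoid dendritic-like cells, all of calf 3, held 14.6, with 27 of 28 cells positive. FCRLA, JCHAIN and SPIB were among the leading genes of these cells. Their marker lists summed to 27.2 (dendritic), 21.5 (plasmacytoid dendritic) and 13.4 (B or plasma cell) UMIs per 10000. The last stood at 0.422 in T or cytotoxic lymphocyte-like cells.

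CXCR4 was also found outside the immune class. In the fibroblast-like class 99 of its 119 UMIs lay in the RGS5- and HIGD1B-led mural-like cluster, at 4.28, 4.72 and 1.59 UMIs per 10000 with 1, 50 and 99 cells, and 58 of these 150 cells were positive. After thinning, RGS5 was found in 28 of 44 mural-like or myofibroblast-like cells with CXCR4 (63.6%) and in 54 of 182 without it (29.7%), and ACTA2 in 28 and in 150 of them. Endothelial-like cells held 379 CXCR4 UMIs against 8 of PTPRC, with 16.1% of thinned cells positive in calf 2 (exact 95% interval 12.95 to 19.8), 2.99% in calf 1 (0.364 to 10.4) and 3.83% in calf 3 (2.45 to 5.70). The interval of calf 2 lay above that of either other calf, and in calf 2 the largest, PLVAP-positive cluster held 196 of the 291 UMIs, at 1.69 UMIs per 10000. After thinning, CXCL12 was found in 7.84% of endothelial-like cells with CXCR4 (8 cells) and in 9.50% of those without it (99 of 1042).

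CCR7 (ENSBTAG00000015133), which brings dendritic cells and T cells to lymphoid tissue, had 120 UMIs in 71 kept cells, of which 0, 5 and 108 UMIs were in immune cells of calves 1, 2 and 3. Its immune level was 0, 0.143 and 0.305 UMIs per 10000 and its thinned share 0 of 7, 2 of 59 and 28 of 618 cells. Endothelial-like and fibroblast-like cells held none, and epithelial-like cells 3 UMIs in 21135 cells, no more than the floor of 3 counts. The plasmacytoid dendritic-like cells carried 47 of the UMIs, with 17 of 28 positive (60.7%, exact 95% interval 40.6 to 78.5), against 8.86% (4.93 to 14.4) of the KLRB1-led lymphocytes and 4.19% (1.93 to 7.80) of the FCER1A-led dendritic-like cells of the same calf. After thinning these were 10 of 25, 7 of 115 and 2 of 209 cells. The immune class was called higher than each of the others, but CCR7 entered the test only through the immune sums of calves 2 and 3, with at most 2 UMIs in any sum of another class, so the filter fixed that call. Without the 4 cells named above it no longer passed the filter, and with DESeq2 the immune difference from the mean of the other classes had an adjusted p of 0.0710. The dendritic-like minus lymphocyte difference of -1.61 (log2, SE 0.66) did not pass the test (adjusted p = 0.105, 0.0756 to 0.881 over the alternatives).

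CCR6 (ENSBTAG00000014496), the CCL20 receptor, was the sparsest with 49 UMIs in 45 cells. Immune cells held 48 of them, 0, 1 and 47 by calf, and it did not pass the count filter of the test. The FCER1A-led dendritic-like cells carried 29, with 28 of 215 cells of calf 3 positive (13.02%, exact 95% interval 8.83 to 18.3), whereas 2 of 158 KLRB1-led lymphocytes (1.27%, 0.154 to 4.50) and 3 of 73 IL17F-led lymphocytes (4.11%, 0.856 to 11.5) were. The dendritic-like cells were the deeper, with a median of 6815 UMIs against 2338 and 3582.5, and after thinning 7 of 230 against 1 of 122 and 1 of 73 cells had a UMI, so no order was resolved at matched depth.

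**Figure D4:**
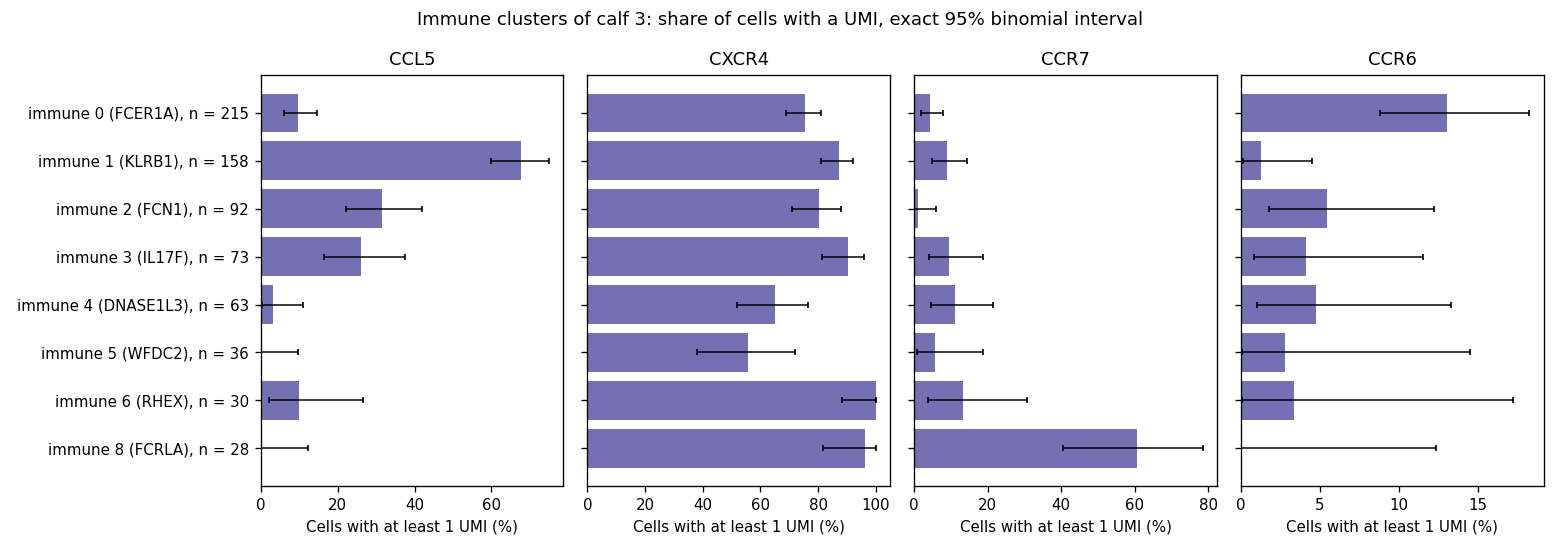
Percent of cells with at least 1 UMI (unthinned) of CCL5, CXCR4, CCR7 and CCR6 in the immune clusters of calf 3, shown as bars with exact 95% binomial intervals as whiskers and the number of cells beside each name. CCL5 is at 67.7% in the KLRB1-led lymphocytes and CCR7 at 60.7% in the 28 plasmacytoid dendritic-like cells.

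Across the 4 classes 9 of the 10 genes passed the filter of at least 5 UMIs in 2 summed libraries, and a gene that passed it through few classes had to differ between them. Higher than in each of the other 3 classes were CCL14 and CCL21 in endothelial-like cells (4.7% of all 15085 tested genes were called in this way), CXCL12 and CXCL14 in fibroblast-like cells (5.71% of all genes), CCL5, CCR7, CXCL9, CXCL10 and CXCR4 in immune cells (7.21%) and none in epithelial-like cells (9.33%). CCR7 had passed the filter through immune sums alone, so its call carries no weight. Without the 4 cells that alone held at least 10% of a gene's UMIs the calls were CCL14, then CXCL12 and CXCL14, then CCL5, CXCL9 and CXCR4, while CCL21 and CCR7 were no longer tested.

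Against the mean of the other 3 classes, 4 of the 9 genes were higher (15.4% of all genes) and 1 lower (11.3%) in endothelial-like cells, 2 higher (14.6%) and 2 lower (8.14%) in fibroblast-like cells, 5 higher (16.2%) and 2 lower (17.1%) in immune cells, and 0 higher (27.8%) and 3 lower (14.5%) in epithelial-like cells. The lower calls were CXCL14 in endothelial-like cells, CCL14 and CCL5 in fibroblast-like cells, CXCL14 and CXCL12 in immune cells, and CXCR4, CCL14 and CXCL12 in epithelial-like cells. CXCL12 and CCL5 counted as higher in endothelial-like cells although fibroblast-like and immune cells, respectively, were higher still, since this contrast averages 3 unlike classes.

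Mural-like or myofibroblast-like cells differed from fibroblast-like cells proper in 3 genes. Of the 9 genes tested here, which included CCR6 and not CCL21, CCL5, CXCL9, CCR6 and CCR7 had 0 UMIs on both sides, so 5 could differ. CXCR4 was at 0.355, 1.76 and 0.8499 UMIs per 10000 against 0, 0.0274 and 0.0441, with a log2 difference of 5.11 (SE 0.60, adjusted p = 1.21e-15), and was the 1 gene above 0 (4.1% of all genes). CXCL14 differed by -6.04 (SE 0.38, adjusted p = 7.81e-54) and CXCL12 by -2.14 (SE 0.31, adjusted p = 2.71e-10), the 2 genes below 0 (4.71% of all genes). The mural-like side of this fit had libraries of calves 2 and 3 only, since calf 1 had 6 such cells.

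Dendritic-like cells and lymphocytes, also from calves 2 and 3 only, differed in 6 of the 9 genes. CXCR4, CCL5 and CXCL14 were below 0 (5.03% of all genes) and CXCL9, CXCL10 and CCL14 above 0 (5.84%), but 1 cell of calf 2 held 147 of the 152 CXCL9 and 10 of the 20 CXCL10 UMIs of the dendritic-like cells. CCL14 differed by 3.58 (SE 1.02, adjusted p = 0.00610) from 33 UMIs in 8 dendritic-like cells and 1 UMI in lymphocytes, and CXCL14 by -1.72 (SE 0.55, adjusted p = 0.0213) from 20 and 28 UMIs. With DESeq2 neither passed (adjusted p = 0.315 for CCL14 and 0.898 for CXCL14), nor without the calf as a block (0.464 and 0.591). Without calf 3 the differences were 8.68 for CCL14 and 0.94 for CXCL14, with adjusted p = 1 for both.

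Of the other chemokine genes, the largest number was called higher in the immune class. Of 18 other ligands tested, 10 were higher in immune cells than in the mean of the other classes (16.2% of all genes) and 1 was lower (17.1%), 7 were higher (15.4%) and 1 lower (11.3%) in endothelial-like cells, 3 higher (14.6%) and 5 lower (8.14%) in fibroblast-like cells, and 3 higher (27.8%) and 5 lower (14.5%) in epithelial-like cells. The 3 of 18 higher in fibroblast-like cells are close to the share over all genes. Among them CCL11 had 3 UMIs in epithelial-like and 0 in endothelial-like cells, and CCL19 had 6 and 0. These ligands passed the count filter through fibroblast sums, so their calls carry no weight. CCL3, called higher in immune cells, had 17 and 3 and passed it only with the help of immune sums. Of the other receptors tested, CCR1, CX3CR1, CXCR1 and CXCR6 were higher in immune cells (16.2% of all genes). CCR1 had 5 UMIs in epithelial-like and 1 in endothelial-like cells, and CXCR6 had 4 and 2. Both genes thus passed the count filter through immune sums, and their calls carry no weight. CX3CR1, with 16 and 4, also passed it only with the help of immune sums. The immune UMIs of CXCR1 were 5 in 4 macrophage-like cells. Immune levels were 5.25 ± 7.91 UMIs per 10000 for CCL2, 6.86 ± 10.5 for CCL8, 2.17 ± 0.755 for CCL3, 4.19 ± 0.799 for CCL4, 1.01 ± 1.00 for CXCL2, 6.48 ± 3.30 for CXCL8 and 5.34 ± 1.00 for CXCL16 (n = 3 each). The SD of CCL2 and of CCL8 exceeded the mean. CXCL3 was highest in endothelial-like cells (20.9 ± 3.98), as was ACKR1 (1.19 ± 0.886), and CCL11, an eosinophil attractant, in fibroblast-like cells (1.68 ± 1.35). CX3CL1 stood at 0.674 ± 0.316 in endothelial-like and 0.350 ± 0.102 in epithelial-like cells, and the order of this pair was not resolved (log2 difference 0.33, SE 0.25, adjusted p = 0.315).

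The partners of the 10 genes were sparse except for CCL20. CCL19, the other CCR7 ligand, had 123 of its 129 UMIs in 17 fibroblast-like cells. CCL20, the CCR6 ligand, had 1792 UMIs in 345 epithelial-like cells and 42 in 7 immune cells. CXCR3, the receptor for CXCL9 and CXCL10, had 19 UMIs in 17 cells, 13 of them lymphocytes. CX3CR1, the CX3CL1 receptor, was at 1.98 ± 0.680 UMIs per 10000 in immune cells. CCR1, the receptor for CCL14 and CCL5, was in 38 cells, of which 22 were macrophage-like.

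Among atypical receptors, ACKR3, which binds CXCL12, had 159 UMIs in 156 epithelial-like cells and 0 in 1270 endothelial-like cells, which allows a share of cells with a UMI of up to 0.236% (3 counts of the total) at a median depth of 3996.5 UMIs against 7706 in epithelial-like cells. ACKR4, which binds CCL19 and CCL21, was highest in fibroblast-like cells (0.202 ± 0.179), where 32 of its 33 positive cells were fibroblast-like cells proper. Most of its UMIs, 385 of 457, lay in 337 epithelial-like cells, at 0.0201 ± 0.00822 UMIs per 10000. ACKR1 was positive in 180 endothelial-like cells. Against the mean of the other classes, ACKR4 and ACKR3 were called higher in fibroblast-like cells (adjusted p = 2.36e-09 and 0.00367). ACKR1 was called higher in endothelial-like cells (adjusted p = 9.66e-20). The ACKR3 call rested on 1 to 3 UMIs in each fibroblast cluster, against a mean that included the endothelial 0. The highest mean level of ACKR3 was in immune cells (0.0418 ± 0.0629).

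The genes with the pattern most like each of the 10 were found by Pearson's correlation of log2 levels over 23 sums of cells, 1 for each finer class and calf, which share libraries and depth. For CCL14 these were ECSCR (r = 0.979), USHBP1 and SOX18, for CXCL14 FBLN1 (0.981) and CPXM1, for CXCL12 PLAC9 (0.975), KANK2 and NID2, and for CXCR4 SRGN (0.905), IL2RG and NR4A2. CCL5 was nearest to TNFSF14 (0.847) and CD84, CCR7 to FYB1 (0.881), MYB and LAMP3, and CCL21 to AIF1L (0.885) and MMRN1 (0.858) after a gene without a symbol (0.989). For CXCL9 (FCGR2B, GALM, DOK3), CXCL10 (GZMB, FCGR2B, GALM) and CCR6 (SYK, CD84, CD1B) the sums held few counts, and the endothelial sums of CCL21 rested on 2 cells.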

How the data were processed

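The 3 libraries were deposited as matrices of raw UMI counts per gene and barcode, which the authors made with Cell Ranger 3.1.0 on ARS-UCD1.2 without normalization. Barcodes with 500 to 4000 genes, at most 50000 UMIs and at most 40% UMIs of 13 mitochondrial genes were kept. Doublets were removed by a simulated-doublet score, at 0.8% of barcodes per 1000. Cells were clustered on 2000 variable genes without chemokine or receptor genes (30 principal components, 50 for immune cells, Harmony over calves, 20 neighbours, Leiden) and named from marker lists, and clusters with more markers of another class were set aside as mixed. Adult libraries were not analysed here.

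Counts were summed per calf and class (at least 10 cells) and tested with edgeR's quasi-likelihood test with TMM and calf as a block, for genes with at least 5 UMIs in 2 summed libraries, with Benjamini-Hochberg adjustment over all genes tested and a threshold of 0.05. The classes of a calf come from 1 library, so the calf number is a true pairing. Each class was compared with the mean of the other 3 and, as a choice made after seeing the data, with each of them in turn. P-values of the 4-class contrasts rest on the spread between 3 calves, with the estimate shared across genes by the fit. In the finer contrasts the mural-like, dendritic-like and lymphocyte libraries came from calves 2 and 3 only. The very small p-values of those contrasts thus rest on a spread estimated over all genes, not on that of 1 gene between calves. The fits were tested on simulated data.

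The 10 genes and the lists were chosen with earlier results of these data known. Named were the 10 genes, other chemokine genes at a mean of at least 0.5 UMIs per 10000 in a class, their receptor or ligand partners, and the 3 genes most alike in pattern among those at 0.5 or more in 1 sum of cells. Some results that this rule would name are not reported here. The alternatives changed normalization, count filter, tool (DESeq2), block, calves, doublet removal, Harmony, cell naming and the limits on barcodes. Versions were Python 3.11.15, scikit-learn 1.9.0, leidenalg 0.10.2, R 4.3.3, edgeR 4.0.16 and DESeq2 1.42.0.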

Additional observations from a re-analysis of the deposited data

Results flagged for a closer look

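Barcodes outside the comparisons also held UMIs of the 10 genes. The 1621 barcodes with over 4000 genes held 2566, of which 1424 were CXCL14 and 656 CCL14. The 3392 barcodes with under 500 genes held 442, and 195 barcodes outside the UMI or mitochondrial limit held 38. The 1978 barcodes removed as doublets held 3193, of which 1354 were CXCL14, 791 CCL14 and 417 CXCR4. The 99 cells of mixed clusters held 344. For CCL21, the removed doublets held 222 UMIs in 8 barcodes, more than the 194 in kept cells.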

How the results depend on the processing

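Leaving out each calf in turn, the CXCL10 difference of immune cells from the mean of the other classes ran from -0.38 (without calf 2, adjusted p = 0.863) to 10.14 on the log2 scale, and the CXCL14 difference of dendritic-like cells from lymphocytes from -2.09 to 0.94 (without calf 3, adjusted p = 1). Leaving out each calf in turn gave 17 to 20 calls over the 4 classes, with 1 to 2 genes lower in endothelial-like, 0 to 2 higher in epithelial-like, 1 to 2 lower in fibroblast-like and 3 to 5 higher in immune cells, where the counts that moved by over 1.5 times were those without calf 2 or, for the fibroblast-like cells, calf 3. In the finer contrasts it gave 5 to 9 calls in all, with 1 to 3 above and 1 to 4 below 0 for dendritic-like cells against lymphocytes, and the lowest counts were those without calf 3, shared with calf 2 for genes above 0. Without the 4 cells that alone held at least 10% of a gene's UMIs, 3 genes were higher in immune and 1 in epithelial-like cells. Against each other class in turn 2 genes were higher in endothelial-like cells. With DESeq2 the finer contrasts gave 5 calls and 0 above 0 for dendritic-like cells. Without the calf as a replicate block, that is without the pairing of classes by calf, 0 genes were lower in fibroblast-like cells and 1 was above 0 in dendritic-like cells, and the block changed no other count by over 1.5 times. The causes were not tested. Of the calls over all genes, 65.8% were higher in epithelial-like cells, against 38.7% with library size alone, and 64.2% in fibroblast-like cells, against 74.5% with DESeq2 size factors and 78.8% with library size alone. The median of all genes shifted by -0.16 (epithelial-like) and 0.14 (fibroblast-like) with size factors and by 0.17 (endothelial-like), -0.47 and 0.23 with library size alone (log2). The largest holder of CXCL14 UMIs turned from epithelial-like to fibroblast-like cells without calf 1 (55.0%) or calf 2 (49.9%), and of CXCR4 from immune to epithelial-like cells without calf 3 (55.3%). That of CCL21 turned from endothelial-like to epithelial-like cells without calf 1 (62.3%), calf 2 (51.0%), at most 10% mitochondrial UMIs (62.7%) or without the 4 cells (100%), that of CCR7 from immune to epithelial-like cells without calf 2 (50.9%) and to a tie without calf 3 (50%), and the highest level of CXCL10 from immune to epithelial-like cells without calf 2. Holders were ranked by the mean of the percents of single calves, whatever the number of UMIs in a calf. Calf 1 held 1 CCR7 UMI and calf 3 held 1 CCL21 UMI, which weighed as much as all those of another calf. Immune cells held 108 of the 114 CCR7 UMIs of calf 3. Endothelial-like cells held 107 of the 142 CCL21 UMIs of calf 2. The planned contrast of lymphatic with blood endothelial cells was not run, since no cluster met the lymphatic markers. Few immune and fibroblast-like cells in calf 1 limit what these counts can show.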
